A study of Rattus norvegicus with 31 samples.

Results

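The acute phase proteins are the plasma proteins whose output from the liver shifts during inflammation, infection or injury. Of their genes, 9 were described here: *A2m*, *Hp*, *Fga*, *Fgb*, *Fgg*, *Orm1*, *Crp*, *Hamp* and *Lcn2*. They were taken as a fixed list of gene symbols, with no threshold on their values, and measured through every probe set that the array annotation assigns to one of them alone. This gave 12 probe sets for 9 genes, out of 31042 probe sets and 14217 genes with a probe set of their own. *Fgb* had 3 probe sets, *Fga* had 2 and the other genes had 1 each, and each gene is represented by its probe set of highest mean signal.

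The samples were the liver and the white (WAT) and brown (BAT) fat of male Wistar rats that arrived at 3 weeks of age and were given diets with different shares of energy from carbohydrate and fat. The L-group received 65% of energy as carbohydrate and 15% as fat, the M-group 60% and 20%, and the H-group 35% and 45%. The M- and H-groups were fed for 9 weeks at the energy intake of the L-group, and food was withdrawn from all rats 17 h before dissection. RNA was measured on 31 Affymetrix Rat Genome 230 2.0 arrays, 1 for each rat and tissue: livers of 5 L rats (1 to 5), 4 M rats (6, 8, 9 and 10) and 4 H rats (12, 13, 15 and 16), and WAT and BAT of the same H and L rats. Rats 7 and 11 were left out by the study for a low food intake. No inflammatory challenge was part of the design.

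In the acute phase response, cytokines from macrophages, mainly interleukin-6 and interleukin-1, reach the hepatocyte and act through STAT3, C/EBP and NF-κB on the promoters of these genes. Fibrinogen, made of the chains encoded by *Fga*, *Fgb* and *Fgg*, forms the clot, haptoglobin (*Hp*) binds free haemoglobin, and orosomucoid (*Orm1*) and alpha-2-macroglobulin (*A2m*) carry small molecules and trap proteases. In rats, A2m is a major acute phase protein, whereas C-reactive protein (*Crp*), a pattern-recognition protein that is a major one in humans, is already abundant in plasma at rest. Hepcidin (*Hamp*) lowers the export of iron from cells, and lipocalin-2 (*Lcn2*) binds the iron carriers of bacteria.

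The 3 fibrinogen genes are neighbours on chromosome 2, within 47.9 kb of the RefSeq assembly GRCr8. Their promoters are shown because their transcripts varied together between livers, and that of *Crp* because it had the lowest p between the H- and L-groups. Of the 9 genes, 7 had an entry in the RefSeq promoter table, and *A2m* and *Hp* had none. The windows searched are the 250 bases before the start given in that table, 5′ to 3′. For *Fgg* this start lies inside the annotated gene, so that 154 of the 250 bases are within the gene, and only the 96 bases before the gene are printed, at chr2:170652833-170652928 on the plus strand. The other runs are whole, at chr2:170671919-170672168 on the plus strand for *Fga*, chr2:170700876-170701125 on the minus strand for *Fgb* and chr13:87693812-87694061 on the plus strand for *Crp*. The capitals mark matches, on either strand, to the STAT3 type II element CTGGGAA, the STAT element TTCNNNGAA or the C/EBP element TTNNGNAA.
*Fga*: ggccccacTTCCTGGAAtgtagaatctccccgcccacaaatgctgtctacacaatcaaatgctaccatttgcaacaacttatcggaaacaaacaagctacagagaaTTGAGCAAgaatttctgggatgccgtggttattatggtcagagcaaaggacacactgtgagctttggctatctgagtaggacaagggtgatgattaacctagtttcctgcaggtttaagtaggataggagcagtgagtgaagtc
*Fgb*: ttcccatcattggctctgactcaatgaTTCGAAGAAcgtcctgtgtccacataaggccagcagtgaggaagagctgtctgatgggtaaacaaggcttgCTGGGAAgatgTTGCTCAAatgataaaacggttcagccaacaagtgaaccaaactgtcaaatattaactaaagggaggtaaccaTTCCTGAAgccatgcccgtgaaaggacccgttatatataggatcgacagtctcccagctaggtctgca
*Fgg*: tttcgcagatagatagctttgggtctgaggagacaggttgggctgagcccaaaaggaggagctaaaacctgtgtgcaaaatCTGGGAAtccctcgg
*Crp*: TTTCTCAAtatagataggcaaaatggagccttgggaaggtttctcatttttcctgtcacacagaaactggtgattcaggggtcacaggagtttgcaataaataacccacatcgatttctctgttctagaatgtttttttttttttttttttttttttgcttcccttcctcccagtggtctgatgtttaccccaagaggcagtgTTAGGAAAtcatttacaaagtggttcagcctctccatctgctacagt

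The 3 fibrinogen promoters did not hold the same matches. *Fgg* had CTGGGAA at 169 bases before the start and, within the annotated gene, at 61 bases. *Fgb* had CTGGGAA at 152 bases, TTCNNNGAA at 223 bases and TTNNGNAA at 141 and 68 bases, and *Fga* had TTCNNNGAA at 242 bases and TTNNGNAA at 144 bases. *Crp* had only TTNNGNAA, at 250 and 47 bases. Among 33469 rat promoter windows of the same length, 9.56% held CTGGGAA, 7.67% TTCNNNGAA and 37.2% TTNNGNAA, so the C/EBP letters were common among all promoters. None of the marked matches overlap each other. A second annotated start of *Fga*, 18 bases downstream, kept the C/EBP match and lost the STAT match. A match describes the letters only, and whether a factor binds there was not tested.

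The liver arrays held the defining transcripts of hepatocytes at the top of their range, with albumin (*Alb*) between 14.28 and 14.30 and the highest value of any probe set at 14.3. Values are log2 signals made with the RMA method, so that a difference of 1 is a doubling. WAT held *Adipoq* at 13.20 to 13.39 with *Ucp1* at 1 value on every array, and BAT held *Ucp1* at 14.44 to 14.89. Some fat samples stood apart on markers of other cells. WAT of rat H15 had the highest mean of the 3 mesothelial markers, 11.55, against 8.19 to 10.39 in the other 8 WAT samples. WAT of rat H16 had the highest mean of 4 neutrophil markers, 8.07, against 6.48 to 6.84 in the other 8. Of these 4 markers, only *S100a8* and *S100a9* varied in WAT, while *Camp* and *Np4* each held 1 value. BAT of rats H13 and H15 held 4 skeletal muscle markers at means of 5.5 and 6.88, against 2.30 in the other 7. BAT of rat H16 had the highest 3′ to 5′ differences of *Gapdh* and actin, 0.628 and 1.88, against 0.359 to 0.456 and 1.36 to 1.58 in the other 8 BAT samples. The 3 tissues were normalized separately with different methods, so levels are not compared between them.

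In the liver no acute phase gene differed between diets past an adjusted p of 0.05 in limma, a linear model that borrows the error estimate across probe sets, with the p adjusted over all 31042 of them by the Benjamini-Hochberg method. In H versus L livers 0 of 9 genes were called (background 0.0354% of all probe sets), in M versus L 0 of 9 (background 0.00644%) and in H versus M 0 of 9 (background 0.0129%). At an unadjusted p under 0.05, 1 of 9 passed in H versus L, *Crp* (background 9.05%), and 0 of 9 in M versus L and in H versus M (backgrounds 4.03% and 5.89%). Rank products, the method of the study, called 0 of 9 genes in these 3 comparisons at a false discovery rate of 0.05. Its backgrounds were 0.664% higher and 0.747% lower in H versus L livers, 0.142% and 0.264% in M versus L, and 0.422% and 0.341% in H versus M. The values of the groups overlapped for all 9 genes in all 3 comparisons. Of all probe sets, 1.6% were higher and 1.46% lower without overlap in H versus L livers, 0.493% and 0.525% in M versus L, and 1.52% and 1.42% in H versus M. The median log2 fold change of the 9 genes was -0.01 in H versus L, -0.03 in M versus L and -0.01 in H versus M, beside medians of 0.00 for all probe sets. In bulk tissue a smaller number of cells of a type and less RNA per cell cannot be told apart.

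**Figure D1:**
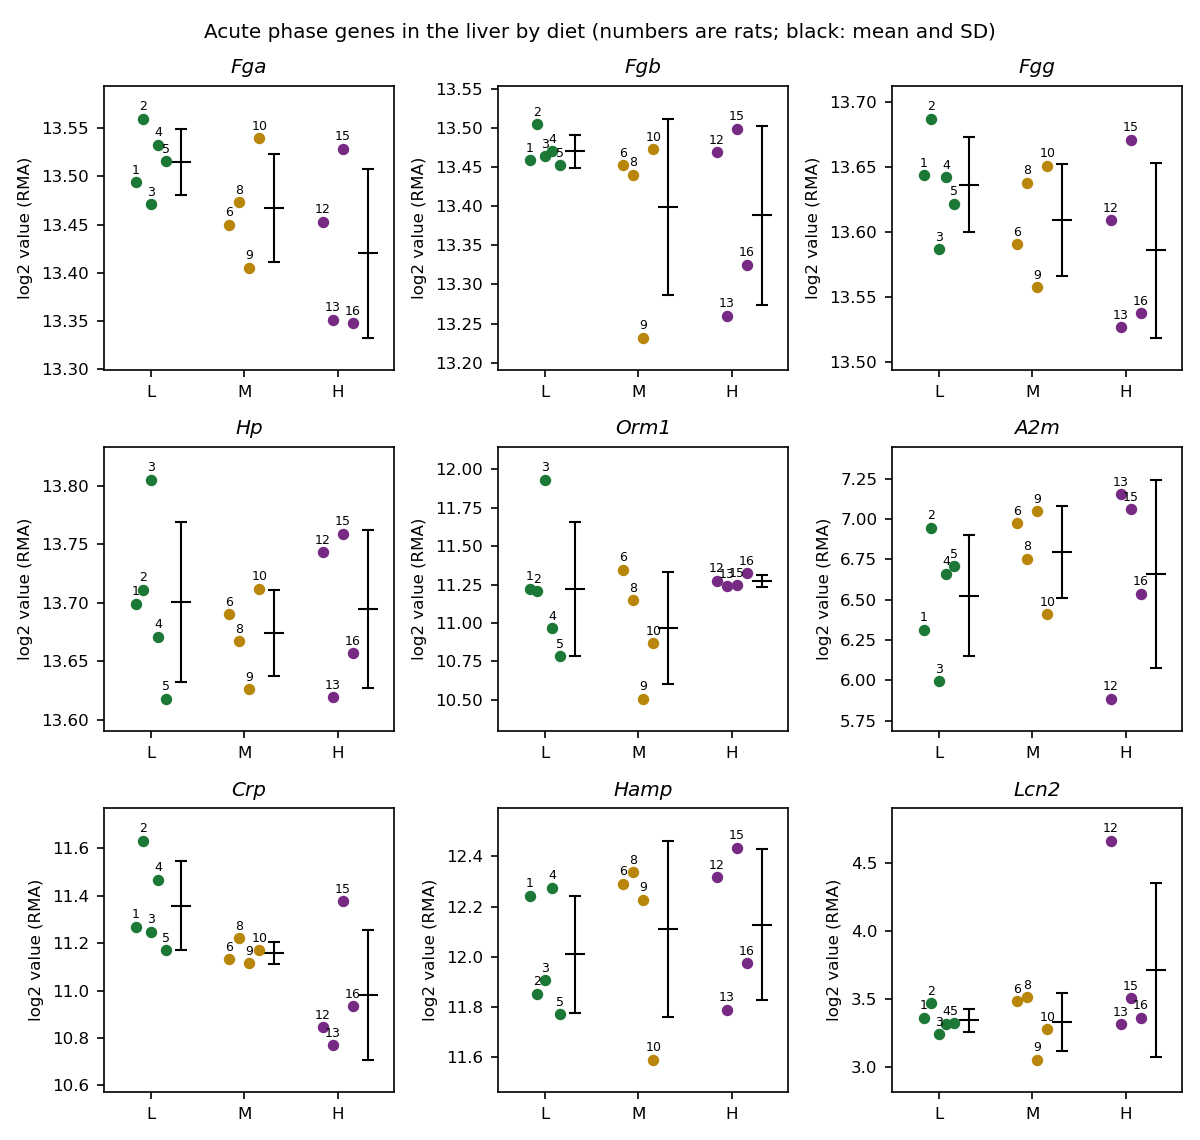
Log2 RMA value (y axis, own scale in each panel) of the 9 genes in each liver by diet (x axis, L, M, H, with n = 5, 4 and 4 rats). Points are rats with their numbers, and black bars are means with SDs. The groups overlap in every panel, and the H12 value of *Lcn2*, 4.66, lies above all other livers.

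The fibrinogen chains were among the strongest signals of the array, and their brightest probe sets had narrow ranges. *Fga* had 13.49, 13.56, 13.47, 13.53 and 13.52 in L livers 1 to 5. It had 13.45, 13.47, 13.41 and 13.54 in M livers 6, 8, 9 and 10, and 13.45, 13.35, 13.53 and 13.35 in H livers 12, 13, 15 and 16. H13 and H16 were below every L and M liver, while H15 was as high as the L livers. The log2 fold change in H versus L livers was -0.09 ± 0.05 (SE), with an adjusted p of 0.63 in limma.

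*Fgb* had 13.46, 13.50, 13.46, 13.47 and 13.45 in L livers. It had 13.45, 13.44, 13.23 and 13.47 in M livers, and 13.47, 13.26, 13.50 and 13.33 in H livers. The L livers stayed between 13.45 and 13.50, and M9, H13 and H16 were the lowest. The fold change was -0.08 ± 0.06 in H versus L livers (limma adjusted p = 0.763).

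*Fgg* had 13.64, 13.69, 13.59, 13.64 and 13.62 in L livers. It had 13.59, 13.64, 13.56 and 13.65 in M livers, and 13.61, 13.53, 13.67 and 13.54 in H livers. H13 and H16 were again the lowest. Its fold change was -0.05 ± 0.05 in H versus L livers (limma adjusted p = 0.813), with a 95% confidence interval of -0.15 to 0.05. The second, dimmer probe set of *Fga* varied more, with values of 10.24 to 11.30 and a within-diet SD of 0.23, against 0.06 for the brighter one. It gave -0.28 ± 0.14 in H versus L livers (limma adjusted p = 0.591), in the same direction as the first. The other probe sets of *Fgb* were dim, with means of 4.12 and 2.89 in H livers and 4.15 and 2.89 in L livers, and differed in sign in H versus L livers, with fold changes of -0.03 and 0.01.

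*Hp* was as bright, with a narrow range. It had 13.70, 13.71, 13.80, 13.67 and 13.62 in L livers, 13.69, 13.67, 13.63 and 13.71 in M livers and 13.74, 13.62, 13.76 and 13.66 in H livers. The groups lay over each other, and the log2 fold change in H versus L livers was -0.01 ± 0.05 (limma adjusted p = 0.985), with a confidence interval of -0.12 to 0.10. For *Fga*, *Fgb*, *Fgg* and *Hp* the intervals of all 3 comparisons lay between -0.22 and 0.14. These 4 genes lie near the upper end of the array's range, and how far the scanner compresses a difference there was not tested.

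*Crp* had the largest H versus L difference in relation to its error. Its values were 11.27, 11.63, 11.25, 11.47 and 11.17 in L livers, 11.13, 11.22, 11.12 and 11.17 in M livers and 10.85, 10.77, 11.38 and 10.93 in H livers. H12, H13 and H16 were below every L and M liver, and H15 was above all 4 M livers and within the range of the L livers. The group means were 11.36 ± 0.19 in the L-group, 11.16 ± 0.05 in the M-group and 10.98 ± 0.27 in the H-group (SD, n = 5, 4 and 4). The log2 fold change in H versus L livers was -0.38 ± 0.12, or 1.30-fold lower, with a confidence interval of -0.63 to -0.12, an unadjusted limma p of 0.00651 and an adjusted p of 0.366. Without H15 it was -0.51 with an adjusted p of 0.132, and over all limma alternatives the adjusted p lay between 0.132 and 0.58. Rank products gave a false discovery rate of 0.0587 for lower *Crp* in H livers, just short of its threshold. The differences in M versus L, -0.20 ± 0.12, and in H versus M, -0.18 ± 0.12, had adjusted p of 0.9999 and 0.906 in limma.

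*Orm1* was variable in the L- and M-groups and even in the H-group. It had 11.22, 11.21, 11.93, 10.97 and 10.78 in L livers, 11.35, 11.15, 10.51 and 10.87 in M livers and 11.28, 11.24, 11.25 and 11.32 in H livers. The SD was 0.44 in the L-group, 0.36 in the M-group and 0.04 in the H-group, and a difference between these SDs was not tested. The H livers lay inside the range of the L livers. The fold change was 0.05 ± 0.20 in H versus L livers and 0.30 ± 0.21 in H versus M (limma adjusted p = 0.967 and 0.906).

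*A2m* had a middling signal and the largest within-diet SD of the 9 genes. It had 6.31, 6.95, 5.99, 6.66 and 6.71 in L livers, 6.97, 6.75, 7.05 and 6.41 in M livers and 5.89, 7.16, 7.06 and 6.54 in H livers. The H-group held both the lowest and the highest of the 13 livers. The fold change in H versus L livers was 0.13 ± 0.25 (limma adjusted p = 0.912), with a confidence interval of -0.40 to 0.67, so changes of that size cannot be seen with these numbers of rats.

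*Hamp*, the iron hormone, was bright. It had 12.24, 11.85, 11.91, 12.28 and 11.77 in L livers, 12.29, 12.34, 12.23 and 11.59 in M livers and 12.32, 11.79, 12.43 and 11.97 in H livers. Each group held high and low livers, and M10 stood below the other M livers. The fold change in H versus L livers was 0.12 ± 0.17 (limma adjusted p = 0.885), and it lay between 0.0168, without H15, and 0.232, without H13, when 1 rat was left out.

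*Lcn2* was dim in all 13 livers, below the array medians of 4.67 to 4.70. It had 3.36, 3.47, 3.24, 3.32 and 3.32 in L livers, 3.48, 3.51, 3.06 and 3.28 in M livers and 4.66, 3.31, 3.51 and 3.36 in H livers. Only H12 stood above the rest. The fold change was 0.37 ± 0.22 in H versus L livers and 0.38 ± 0.23 in H versus M (limma adjusted p = 0.673 and 0.898). Without H12 these were 0.05 and 0.06. The mean of 4 neutrophil markers was 4.05 in H12, against 4.05 to 4.16 in the other H livers.

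**Figure D2:**
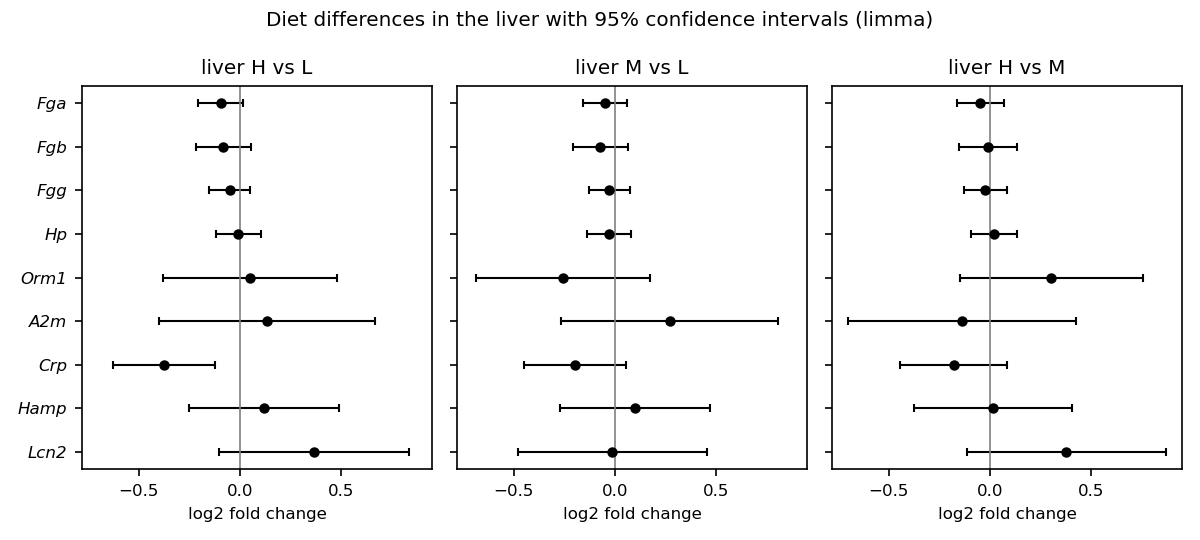
Log2 fold change (x axis) of each gene (rows) in 3 liver comparisons, H versus L, M versus L and H versus M, with 95% confidence intervals from limma as bars. The interval of *Crp* in H versus L, -0.63 to -0.12, is the only interval that leaves out 0, before adjustment over all probe sets.

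The spread between rats of a diet was read from the brightest probe set of each gene. The within-diet SD in the liver was 0.43 for *A2m*, 0.37 for *Lcn2*, 0.34 for *Orm1*, 0.29 for *Hamp* and 0.19 for *Crp*. It was 0.09 for *Fgb*, 0.06 for *Fga* and *Hp* and 0.05 for *Fgg*, against a median of 0.11 over all probe sets. The SD of *A2m* was above that of 98.0% of probe sets and the SD of *Fgg* above 1.93%. The second probe set of *Fga*, with an SD of 0.23, was above 91.1%. The probe sets differ in brightness, and its part in their SDs was not tested. The SD of *Lcn2* was 0.14 without H12, and no other SD moved by as large a factor when a rat was left out.

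**Figure D3:**
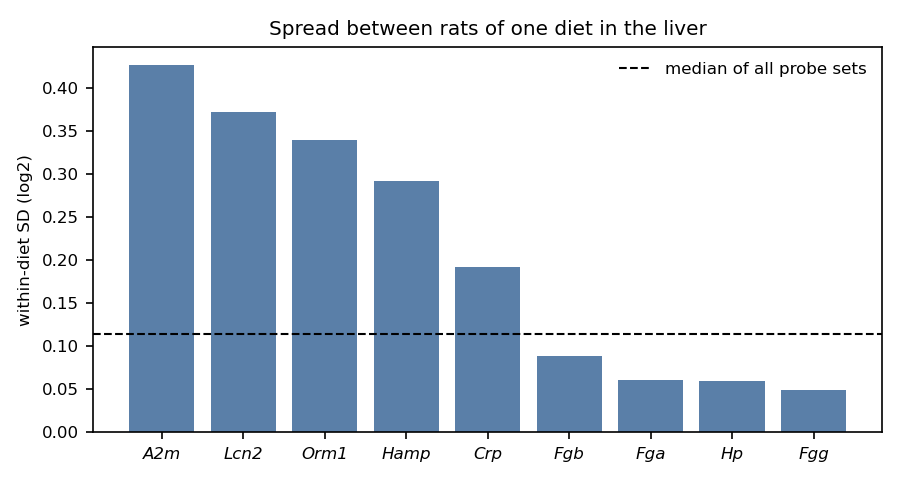
Within-diet SD of the log2 value (y axis, bars from 0) of the brightest probe set of each gene (x axis) over 13 livers in 3 diets, with the median of all 31042 probe sets as a dashed line. Of the genes, 5 lie above the line and *Fgb*, *Fga*, *Hp* and *Fgg* below it.

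The same livers were low or high for several genes at once. Within the M-group, rat M9 had the lowest value for 7 of 9 genes (*Hp*, *Fga*, *Fgb*, *Fgg*, *Orm1*, *Crp* and *Lcn2*) and the highest for *A2m*. Within the H-group, rat H13 had the lowest value for 7 of 9 genes and the highest for *A2m*, and rat H15 had the highest for 6, namely *Hp*, the 3 fibrinogen chains, *Crp* and *Hamp*. Within the L-group, rat L2 had the highest value for 6 genes. The share of all probe sets for which these rats were lowest or highest of their group was not computed. These counts therefore cannot be called particular to the acute phase genes. The 3 fibrinogen chains, which varied together, count as separate genes in them. The mean of 5 macrophage markers in the liver was 8.18 in M9 and 8.01 in H15, the 2 highest of all livers, and 7.66 in H13. The 3′ to 5′ differences of *Gapdh* and actin, signs of RNA integrity, were the highest of all livers in M9, at 0.481 and 2.23, and the lowest in H15, at 0.159 and 1.82, with 0.32 and 2.13 in H13. The part of either measure in these orders was not tested.

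After the diet means were subtracted, the fibrinogen chains went up and down together over the 13 livers. *Fga* and *Fgg* had a Pearson r of 0.951 and a Spearman rho of 0.907, with adjusted p of 0.0036 and 0.0209 in a permutation test of the rats within each diet over 36 pairs of genes. *Fgb* and *Fgg* had an r of 0.820 (permutation test, adjusted p = 0.0166) and a rho of 0.791 (adjusted p = 0.0742), and *Fga* and *Fgb* an r of 0.836 (adjusted p = 0.0780) and a rho of 0.846 (adjusted p = 0.0922). Without the 2 livers farthest from the median, these r were 0.935, 0.788 and 0.786, and *Fgb* with *Fgg* no longer passed (permutation test, adjusted p = 0.08302). No pair other than *Fga* with *Fgg* and *Fgb* with *Fgg* passed the adjustment.

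*Crp* followed the fibrinogen chains less closely, with an r of 0.759 to *Fgg* (permutation test, adjusted p = 0.0670) and 0.697 to *Fga* (adjusted p = 0.0780). *Hp* had an r of 0.669 to *Fgb* (permutation test, adjusted p = 0.0670) and 0.680 to *Orm1* (adjusted p = 0.0780). Its r was 0.473 to *Fga* and 0.428 to *Fgg* (permutation test, adjusted p = 0.471 and 0.484). Without the 2 livers farthest from the *Hp* median, the r to *Orm1* was 0.317. Those to *Fgb*, *Fga* and *Fgg* were then 0.914, 0.861 and 0.846. The probe sets of a liver were read on 1 array and share its RNA and hybridization. The mean of the 3 chains had an r of -0.494 to the 3′ to 5′ difference of *Gapdh* (permutation p = 0.216, 13 livers, rho = -0.473), which was -0.01 without the 2 farthest livers. Its r was -0.412 to the same difference of actin (permutation p = 0.294, rho = -0.225), and -0.421 without the 2 livers farthest for actin. To *Alb* its r was 0.272 (permutation p = 0.4664, rho = 0.270), and 0.124 without the 2 livers farthest for *Alb*. *Alb* stayed between 14.28 and 14.30 at the top of the range, so its relation can show little of an effect shared by an array. Adjusted over these 3 relations, the p of r lay between 0.441 and 0.4664. When all probe sets of a gene were averaged, *Fgb* with *Fgg* had an r of 0.628 (permutation test, adjusted p = 0.5502).

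**Figure D4:**
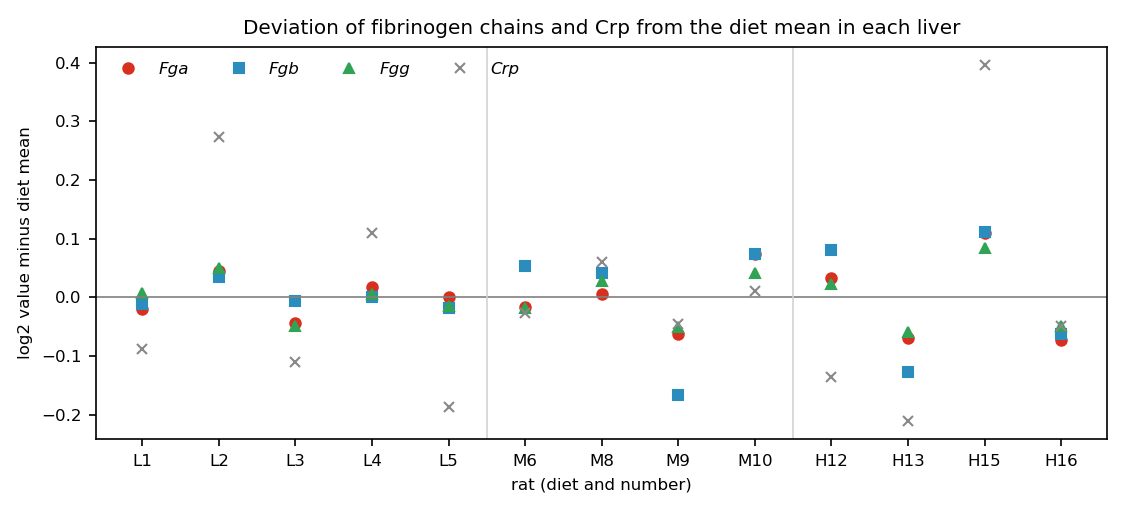
Log2 value minus the mean of the diet (y axis) of *Fga*, *Fgb*, *Fgg* and *Crp* in each of 13 livers (x axis, diet and rat number). The 3 chains lie close together in most livers, and all 4 genes are, for example, below the diet mean in M9 and H13 and above it in L2 and H15.

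The genes most like each member over the 13 livers were named by the highest Pearson r after the diet means were subtracted, among 14208 genes, as a description without a test. *Fga* was closest to *Lcnl* (r = 0.918) and *Duox2* (0.917), *Fgg* to *Ssr2* (0.918) and *Lcnl* (0.906), and *Fgb* to *Socs1* (0.918), which encodes an inhibitor of cytokine signalling, and *Mybphl* (0.900). *Hp* was closest to *Hdlbp* (0.907) and *C8b* (0.903), a complement component of the liver, and *Crp* to *Unc13b* (0.946) and *Gdpd1* (0.901). *Orm1* was closest to *Rhbdd3* (0.930) and *Tnf* (0.918), the gene of tumour necrosis factor, which had a mean of 4.19. *A2m* was closest to *COX2* (0.902), a mitochondrial subunit of cytochrome c oxidase with a mean of 13.7, and *Vangl1* (0.899). *Hamp* was closest to *Rad54l* (0.905) and *Fgr* (0.874), and *Lcn2* to *Neurl3* (0.971) and *Sat1* (0.938). Without the 2 farthest livers these 18 values lay between 0.716 and 0.924, the lowest being that of *Fgb* with *Mybphl*. Each r is at the top of 14208 values over 13 livers, and the r that unrelated genes would reach was not tested. Several of these genes were dim, below the array medians of 4.67 to 4.70. They were *Tnf*, *Socs1* (mean 4.41), *Lcnl* (4.405), *Fgr* (4.33), *Mybphl* (3.65), *Unc13b* (3.59), *Duox2* (3.57) and *Rad54l* (2.97).

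Other genes of the acute phase response were read from 5 lists, and limma called no gene of any list in any liver comparison or in H versus L WAT or BAT. Rank products, on the same probe set of each of the 74 measured genes, called 3 higher and 2 lower in H versus L livers (backgrounds 0.664% and 0.747%). It called 0 higher and 2 lower in M versus L (backgrounds 0.142% and 0.264%). In H versus M it called 1 higher and 0 lower (backgrounds 0.422% and 0.341%). The genes called in H versus L livers were *Mt2A*, *Serpina7* and *Il1r1* higher and *Cd14* and *Il1a*, an interleukin-1, lower. In M versus L *Cd14* and *Serpina7* were lower, and in H versus M *Serpina7* was higher. On other probe sets of a listed gene it also called *Nr3c1* and *Il1a* lower in H versus L, *Cebpa* (on 2 probe sets) and *Il1a* lower in M versus L, and *Cebpa* higher in H versus M. The lists were chosen with earlier results of these data known. The paper names *Il1a*, the glucocorticoid receptor (*Nr3c1*) and, in WAT, *Il6st* among its own calls. A count of a list beside its background, in any tissue, therefore cannot show an enrichment. Of 20 measured genes of other positive acute phase proteins, 5 were higher and 15 lower in H than in L livers (of all probe sets 49.7% were higher and 50.3% lower), with a median log2 fold change of -0.03, and 4 had an unadjusted p under 0.05 (background 9.05%). *Mt2A*, a metallothionein that binds zinc and copper, averaged 11.42 ± 0.40 in H livers and 10.49 ± 0.46 in L livers (log2 fold change 0.92 ± 0.23, limma adjusted p = 0.232). *Apcs*, the serum amyloid P relative of *Crp*, averaged 12.35 ± 0.06 in H livers and 12.52 ± 0.07 in L livers (-0.17 ± 0.05, limma adjusted p = 0.375). *Cd14*, a receptor for bacterial lipopolysaccharide, gave -0.63 ± 0.26 in H versus L livers (limma adjusted p = 0.511), and *Lbp*, which hands lipopolysaccharide to it, gave 0.20 ± 0.10 (limma adjusted p = 0.571).

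Of the negative acute phase proteins, whose output falls in inflammation, 9 were measured and 3 of these held 1 level, within 0.1, on all liver arrays. Of the other 6, 3 were higher and 3 lower in H than in L livers, and 3 had an unadjusted p under 0.05 (background 9.05%). *Apoa1*, the main protein of high-density lipoprotein, averaged 13.02 ± 0.19 in H livers and 12.67 ± 0.10 in L livers (0.35 ± 0.09, limma adjusted p = 0.265). *Serpina7*, the thyroxine-binding globulin, averaged 9.77 ± 0.94 in H livers and 8.22 ± 0.55 in M livers (1.55 ± 0.37, limma adjusted p = 0.468). *Fetub*, a fetuin, gave -0.14 ± 0.06 in H versus L livers (limma adjusted p = 0.539).

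Of 12 measured cytokines and receptors, 4 were higher and 8 lower in H than in L livers, and 3 had an unadjusted p under 0.05 (background 9.05%). *Il6* was dim, at 2.7 ± 0.07 in H livers and 2.85 ± 0.07 in L livers, and gave -0.15 ± 0.05 in H versus L livers (limma adjusted p = 0.442). *Il1rap*, the accessory chain of the interleukin-1 receptor, gave -0.25 ± 0.08 (limma adjusted p = 0.377). *Il6st*, the signalling chain of the interleukin-6 receptor, gave -0.28 ± 0.13 in M versus L livers, and *Il1r1*, the interleukin-1 receptor, 0.35 ± 0.30 (limma adjusted p = 0.9999 for both). Of 15 signal transducers and transcription factors, 9 were higher and 6 lower, and 2 had an unadjusted p under 0.05 (background 9.05%). *Cebpa*, a C/EBP factor of the hepatocyte, gave -0.27 ± 0.11 in H versus L and -0.34 ± 0.11 in M versus L (limma adjusted p = 0.513 and 0.9999), and *Nr3c1*, the glucocorticoid receptor, -0.25 ± 0.11 in H versus L (limma adjusted p = 0.546). *Nfkb1*, an NF-κB subunit, gave 0.10 ± 0.09 in M versus L, and *Hnf4a*, a hepatocyte factor, 0.15 ± 0.11 in H versus M (limma adjusted p = 0.9999 and 0.916).

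Of 18 measured genes of hepcidin control and iron handling, 5 were higher and 13 lower in H than in L livers, and 1 had an unadjusted p under 0.05 (background 9.05%). This was *Smad1*, which carries the bone morphogenetic protein signal to *Hamp*, with -0.15 ± 0.06 (limma adjusted p = 0.506). *Bmp6*, the ligand of that signal in the liver, gave -0.06 ± 0.05, and *Tfr2*, an iron sensor of the hepatocyte, gave -0.03 ± 0.06 (limma adjusted p = 0.813 and 0.925). *Slc39a14*, a metal importer of the hepatocyte, gave 0.12 ± 0.08 in H versus M (limma adjusted p = 0.899). Macrophage markers averaged 7.44 to 7.64 in L livers, 7.46 to 8.18 in M livers and 7.56 to 8.01 in H livers, and hepatocyte markers 12.37 to 12.66 in H livers and 12.47 to 12.69 in L livers. Their part in the values of these lists was not tested.

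In WAT, 8 of the 9 genes held a single value on all 9 arrays, as did most probe sets (84.6% had a range under 0.1). The method used for WAT, qFARMS, returns 1 value where the probes of a set do not vary together, so differences of these genes cannot be seen. *Fgg* was the exception. It had 6.58, 6.44, 8.32 and 6.17 in H rats 12, 13, 15 and 16, against 6.48, 6.79, 6.76, 7.21 and 6.54 in L rats. H15 stood above all others and H16 below them. The log2 fold change in H versus L WAT was 0.12 ± 0.45 and the limma adjusted p was 1 (0 of 1 varying gene called, background 0.0548%), and it was -0.36 without H15.

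The WAT samples that stood out for *Fgg* stood out for mesothelial markers too. The mean of *Msln*, *Lrrn4* and *Wt1* was 11.55 in H15, the highest, and 8.19 in H16, the lowest, with 9.42 and 9.45 in the other H samples and 8.96 to 10.39 in L samples. The 5 hepatocyte markers averaged 7.74 in H15, also the highest, with 6.76 to 7.40 in the other H samples and 6.81 to 7.45 in L samples, and of these only *Alb* varied. H16, the lowest for *Fgg*, was the sample with the highest mean of neutrophil markers, of which only *S100a8* and *S100a9* varied. The part of these cells in the *Fgg* value was not tested. The difference between tissues, the WAT effect minus the liver effect of H versus L, was 0.17 ± 0.42 for *Fgg* (limma adjusted p = 0.930, background 0.177%). The liver values were made with RMA and the WAT values with qFARMS, so in this difference method and tissue cannot be told apart. Of the 74 genes of the 5 lists, rank products called 4 higher and 0 lower in H versus L WAT (backgrounds 0.773% higher and 1.03% lower). These were *Mt2A*, *Serpina3n*, a protease inhibitor, *Alb* and *Tsc22d3*, a target of glucocorticoids. Their log2 fold changes were 0.96 ± 0.31, 0.45 ± 0.24, 0.56 ± 1.16 and 0.30 ± 0.38 (limma adjusted p = 0.682, 0.807, 0.989 and 0.907). The errors of *Alb* and *Tsc22d3* were larger than their fold changes, and *Alb* ranged from 7.83 to 12.71 between WAT samples. Rank products also called *Il6st* higher on 2 other probe sets, *Alb* higher on 1 other and *Slc40a1*, the iron exporter, lower on 1 other. The WAT backgrounds cover all probe sets, of which 84.6% had a range under 0.1. Of the genes of the 5 lists, 8 of 20, 2 of 9, 6 of 12, 9 of 15 and 7 of 18 varied in WAT. The backgrounds are therefore not a like share, and one among varying probe sets alone was not computed.

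In BAT, 8 of the 9 genes lay at the lowest value of the table, 2.29, on every array to within 0.1, and 48.3% of all probe sets had a range under 0.1. *Orm1* was above it. It had 4.03, 4.52, 4.12 and 3.17 in H rats 12, 13, 15 and 16, against 3.51, 3.05, 3.51, 3.16 and 3.51 in L rats. L rats 1, 3 and 5 held an identical value, 3.5066, and whether it is a background level was not tested. Of the H samples, 3 were above every L sample and H16 was among the lowest. The log2 fold change in H versus L BAT was 0.62 ± 0.27, with a confidence interval of -0.01 to 1.25, an unadjusted limma p of 0.0542 and an adjusted p of 0.970 (0 of 1 varying gene called, background 0%). Rank products called *Orm1* higher at a false discovery rate of 0.0406 (backgrounds 0.686% higher and 1.29% lower). Without H16, the sample that stood apart on RNA integrity, the fold change was 0.88, and over all limma alternatives its adjusted p lay between 0.199 and 1.

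Markers of other cells moved in part with *Orm1* in BAT. Skeletal muscle markers were present in H13 and H15, while H12, with *Orm1* at 4.03, had them at 2.30, as in all L samples. The 4 neutrophil markers averaged 3.16 to 3.73 in H samples and 3.02 to 3.26 in L samples, the highest being H13, with *Camp* and *Np4* at the lowest value of the table in all. The 5 macrophage markers averaged 3.64 to 3.97 in H samples and 3.43 to 3.64 in L samples, with *Clec4f* at the lowest value. The part of muscle, neutrophils and macrophages in the *Orm1* difference was not tested. The BAT effect minus the liver effect was 0.57 ± 0.33 for *Orm1* (limma adjusted p = 0.580, background 0.206%). Here too method, RMA in the liver and GCRMA in BAT, and tissue cannot be told apart. Of the 74 listed genes, rank products called 1 higher and 2 lower in H versus L BAT (backgrounds 0.686% and 1.29%). *Id1*, a target of the bone morphogenetic protein signal, was higher, and *Cd14* and *Hmox1*, the haem-degrading enzyme, were lower. Their log2 fold changes were 1.125 ± 0.45, -0.94 ± 0.46 and -1.26 ± 1.115 (limma adjusted p = 0.97 for each). Rank products also called *Tfrc*, the transferrin receptor, higher on another probe set. The BAT backgrounds cover all probe sets, of which 48.3% had a range under 0.1, and a share among varying probe sets alone was not computed.

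**Figure D5:**
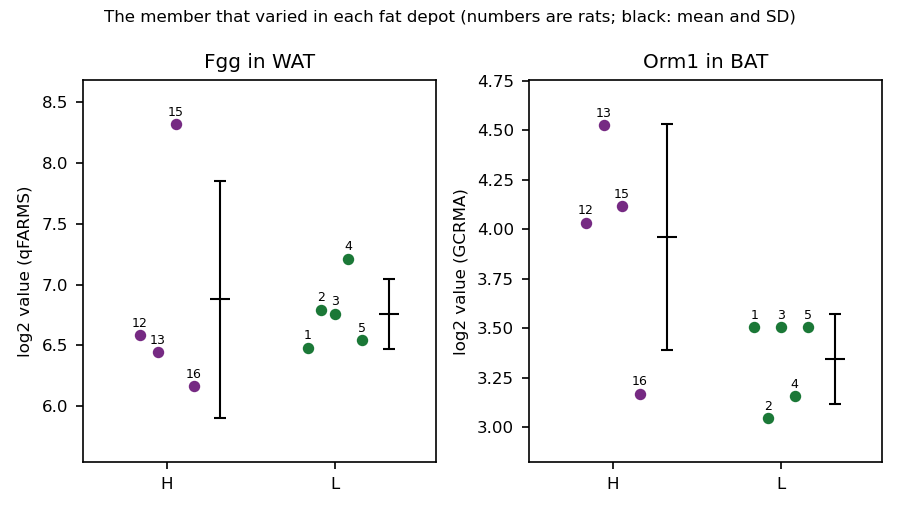
Log2 value (y axis) of *Fgg* in WAT (qFARMS) and of *Orm1* in BAT (GCRMA) in 4 H and 5 L rats (x axis). Points are rats with their numbers and black bars are means with SDs. *Fgg* in H15 (8.32) is above all other WAT samples, and *Orm1* in H12, H13 and H15 (4.03 to 4.52) is above all L samples.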

How the data were processed

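Gene expression was measured with Affymetrix arrays, 1 for each rat and tissue. The authors deposited log2 values, made with RMA for liver, qFARMS for WAT and GCRMA for BAT, separately for each tissue, and no further normalization was applied. Arrays give no read depth, so the number of arrays limits the precision. The 57 control probe sets were left out, and of the others 20826 carried 1 gene symbol, 436 several and 9780 none. Diets were compared with limma 3.58.1 in R 4.3.3 over all 31042 probe sets of a tissue (13 liver, 9 WAT or 9 BAT arrays), with Benjamini-Hochberg adjustment and a threshold of 0.05. Tissue differences were tested as a tissue by diet interaction. Liver and fat samples with the same number came from the same rat per the labels. Their deviations from the diet means correlated between 0.0987 and 0.207 for WAT (median 0.137) and between 0.0312 and 0.157 for BAT (median 0.120), and rat as a block was an alternative. Correlations between genes were tested with 100000 permutations of rats within diets (Python 3.11.15). Genes with a range under 0.1 in a tissue were given no fold change. The other alternatives were rank products with 100 permutations, a trended and robust fit, bright probe sets only, median centring, quantile normalization, array weights, averaged probe sets of each gene, the compared groups alone, each rat left out, and, chosen after seeing the data, probe sets with a range over 0.1. Scripts were tested on simulated data. The text names every member gene, from each of 5 pathway lists the 2 genes of lowest limma p per liver comparison, any gene called by limma or rank products, and the 2 genes most like each member. The values of 11 lists of cell type markers were read beside them. The members and lists were chosen with earlier results of these data known. Gene positions, through Entrez gene numbers, and promoters, through gene symbols, came from RefSeq (GRCr8), since the array annotation names no build.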

Additional observations from a re-analysis of the deposited data

Results flagged for a closer look

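In 3 of 31 groups of samples checked, 1 sample lay far from the others of its group for its range, and chance alone gives about 1 in 20. *Fgb* in the liver of rat M9 was 13.23, against 13.44 to 13.47 in the other M livers. *Hamp* in the liver of rat M10 was 11.59, against 12.23 to 12.34 in the other M livers. *Lcn2* in the liver of rat H12 was 4.66, against 3.31 to 3.51 in the other H livers.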

How the results depend on the processing

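No member was called by limma under any alternative. Rank products called 1 member, *Orm1*, in BAT. Of 564 fold changes of the members in the liver under alternatives, 543 kept their direction and 21 reversed, 19 of these when a rat was left out. With array weights *Lcn2* in M versus L was 0.0369 and *Hamp* in H versus M -0.0153. Array weights also turned *Fgg* in WAT to -0.14. Leaving out 1 rat gave -0.36 to 0.36 for *Fgg* in H versus L WAT and -0.28 to 0.39 for its WAT minus liver difference, the lowest without H15 in both. In H versus L livers it gave -0.0304 to 0.392 for *A2m*, -0.0279 to 0.0196 for *Hp* and -0.0602 to 0.226 for *Orm1*. In M versus L it gave -0.071 to 0.0814 for *Lcn2*, and in H versus M -0.30 to 0.12 for *A2m*, -0.000958 to 0.0458 for *Hp*, -0.0668 to 0.0318 for *Fgb* and -0.16 to 0.13 for *Hamp*. With rat as a replicate block the WAT minus liver difference of *Fgg* was 0.17 ± 0.36 and the BAT minus liver difference of *Orm1* was 0.57 ± 0.30 (limma adjusted p = 0.917 and 0.577), and no member was called. The block lowered the calls over all probe sets to 4 and 3, beside 55 and 64 without it. Over all probe sets, fits of the compared groups alone called 6 in H versus L, 1 in M versus L and 0 in H versus M livers, and rank products called 438, 126 and 237, and 561 in WAT and 614 in BAT. All 17 WAT calls lay on probe sets with a range under 0.1. With the diet means kept 5 pairs of members passed the adjustment, and with the mean of all probe sets 1 did. *Fgb* with *Fgg* had an r of 0.63 with that mean and 0.79 without the 2 farthest livers (permutation adjusted p = 0.5502 and 0.08302). The causes of these changes were not tested. Dim signals, such as *Lcn2* in the liver, and single values in WAT and BAT limit what can be seen.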
